A study of Mus musculus with 14 samples.

Results

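Expression of 7 mouse apolipoprotein L genes, Apol7a, Apol7b, Apol7c, Apol7e, Apol9a, Apol9b and Apol10b, was followed across 14 libraries of lymph node dendritic cells (DCs). The genes were found by symbol in a table of 23420 genes. The family was chosen by a measured value, since Apol7c is very abundant and differs between the groups of these same libraries, so the levels of Apol7c, and the contrast of biotin-positive with biotin-negative cells for every member, are given as a description with no test. All 7 symbols were in the table. Of these, 6 passed the filter on low counts and entered the fit over 14217 genes, and Apol9a did not.

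Apolipoprotein L proteins bind lipids and membranes, and unlike the apolipoproteins of plasma lipoproteins most of them act inside cells. The human member APOL1 is known for the pore it forms in trypanosome membranes, and mouse APOL7C has been described as a DC protein that is recruited to phagosomes and damages their membrane during cross-presentation of antigen. In mice the family has expanded into a cluster of close copies on chromosome 15, and Apol9a and Apol9b are known as interferon-induced genes.

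The libraries came from an experiment that labels DCs which have contacted T cells through CD40 and CD40 ligand. T cells carried a sortase enzyme fused to CD40 ligand, and this enzyme transfers a biotin-tagged peptide onto CD40 molecules that bear an N-terminal glycine tag (G5). Each library held the RNA of 150 sorted cells from popliteal nodes of C57BL/6 mice, amplified by Smart-seq2 and read as 38-base pairs. Sorted cells were host DCs with high MHC class II, CD11c and CD11b and without XCR1.

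The biotin-positive (6 libraries) and biotin-negative (6 libraries) groups were both taken from hosts homozygous for the tagged Cd40 allele (Cd40G5/G5). These hosts received 500000 Cd40G5/G5 DCs pulsed with the peptide OVA323-339 in each footpad and, 18 h later, 300000 OT-II CD4+ T cells carrying CD40lgSrtA/Y and CD4-Cre. The substrate, 300 nmol of Biotin-LPETG per footpad, was given 46 h after the T cells and nodes were taken at 48 h. The Cd40-null group (2 libraries) came from Cd40-/- hosts that were treated alike but received DCs and OT-II T cells of wild-type origin. Host genotype and transferred cells therefore change together in both comparisons with that group, and their contributions cannot be told apart. All groups saw peptide-pulsed DCs, OT-II T cells and substrate, so none is an unimmunised control. The labels do not say whether libraries of one group came from separate mice, and p-values here measure only the spread between these libraries.

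Libraries held between 1.45e+07 and 3.33e+07 estimated counts. Levels are given as CPM, counts scaled to a common depth, with TMM factors. Cd40 itself was at 1062 ± 163 CPM (SD, n = 6) in biotin-positive, 511 ± 78.7 CPM (n = 6) in biotin-negative, and 53.3 and 74.2 CPM in the Cd40-null libraries. Ccr7, the receptor that brings DCs to lymph nodes, was at 2412 to 4296 CPM in all libraries, and Xcr1 at 1.41 to 4.47 CPM. Itgam, which encodes the sorting marker CD11b, was at 0.0516 to 5.88 CPM in biotin-positive and 10.1 to 65.0 CPM in biotin-negative libraries. Detected genes numbered 13090 to 13455 in biotin-positive, 14225 to 15742 in biotin-negative and 13113 and 13596 in Cd40-null libraries.

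The members lie within one stretch of chromosome 15 (GRCm38.p6, RefSeq). Apol7a is at chr15:77388217-77399110, Apol9a at chr15:77403789-77411080, Apol7b at chr15:77422209-77447460, Apol7c at chr15:77524852-77533335, Apol10b at chr15:77584154-77598542, Apol7e at chr15:77695706-77719288 and Apol9b at chr15:77729047-77736382. Between Apol10b and Apol7e lies Gm8221 (chr15:77618968-77627398), which RefSeq lists as a pseudogene. It is no member of the list, but its transcript was 97.0% identical to that of Apol7c over 1110 aligned bases, with 33 mismatches and 0 gap bases. Identity to the Apol7c transcript was 91.2% for Apol7a, 88.6% for Apol7b and 88.1% for Apol7e, and 73.6% over 276 aligned bases for Apol10b.

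These likenesses bear on how far a short read can be assigned to one gene. The first 76 bases of the largest coding exon of Apol7c (chr15:77526424-77526499, minus strand, an exon of 862 coding bases) are shown with the matching transcript windows of its closest copies. They are printed in the sense direction from GENCODE M21 transcripts on GRCm38, and capitals mark each base that differs from Apol7c.
Apol7c: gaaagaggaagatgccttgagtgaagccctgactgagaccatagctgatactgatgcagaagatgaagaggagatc
Gm8221: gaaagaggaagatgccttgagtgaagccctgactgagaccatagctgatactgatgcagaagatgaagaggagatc
Apol7b: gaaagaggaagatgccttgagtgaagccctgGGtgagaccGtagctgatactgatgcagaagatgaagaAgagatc
Apol7e: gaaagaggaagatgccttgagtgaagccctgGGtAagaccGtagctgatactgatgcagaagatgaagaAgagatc
Apol7a: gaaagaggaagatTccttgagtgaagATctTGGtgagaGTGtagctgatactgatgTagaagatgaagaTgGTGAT
Across these 76 bases Gm8221 had 0 differences from Apol7c, Apol7b had 4, Apol7e had 5 and Apol7a had 16. Apol7b and Apol7e shared a first run of 31 bases with Apol7c.

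Over whole transcripts, 66.6% of the 2023 windows of 38 bases (the read length) in Apol7c occurred in no other gene. Each window stands for a single end of a read pair, and pairs as a whole were not scored. Gm8221 held 21.4% of the Apol7c windows, Apol7a 14.8%, Apol7e 6.33% and Apol7b 4.45%. Apol7b and Apol7e were harder to separate: they had 1720 windows in common, which is 78.5% of those of Apol7b and 79.2% of those of Apol7e, and only 18.8% and 16.9% of their windows were unique. Apol9a and Apol9b shared 64.6% and 59.3% of their windows. Apol10b was the most distinct member, with 90.9% of its windows unique. Estimated counts of the Apol7 genes and Gm8221 are therefore uncertain in how they are split, and were also summed.

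**Figure D1:**
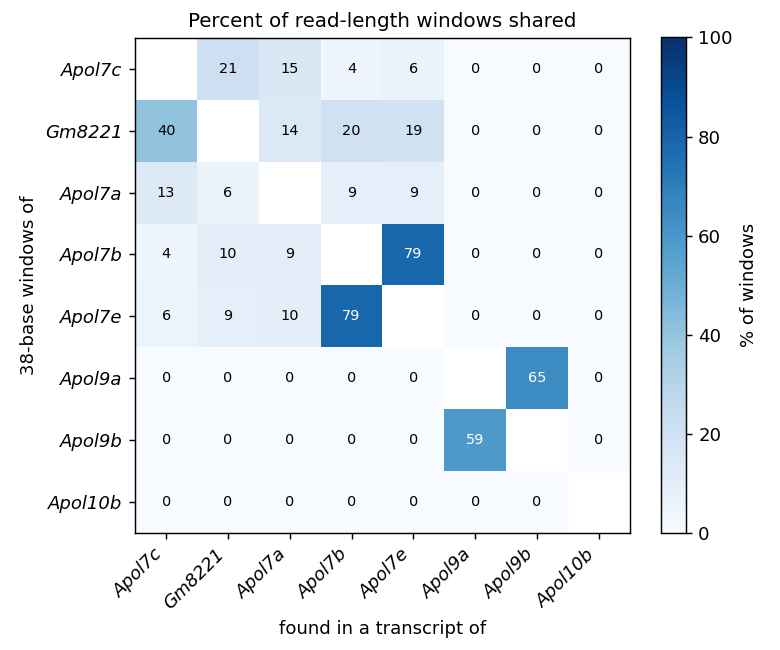
Percent of the 38-base windows of each gene's transcript (vertical axis) that also occur in a transcript of another gene (horizontal axis). Apol7b and Apol7e share most of their windows with each other (78.5% and 79.2%), Apol9a and Apol9b share 64.6% and 59.3%, and Apol10b shares none with the other genes shown.

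Promoters of 300 bases (250 before and 50 after the annotated start, RefSeq, GRCm38.p6) were matched for all 7 members. Only the first listed start of each gene was used, and any other start was not searched. For Apol7e and Apol10b the promoter used lies inside the gene coordinates given above. They are shown for Apol7c (chr15:77533266-77533565, minus strand), Apol7b (chr15:77447411-77447710, minus strand), Apol7e (chr15:77698639-77698938, plus strand) and Apol10b (chr15:77596076-77596375, minus strand), because the first of these genes differ together between groups and Apol10b does not follow them. Capitals mark matches to the core of an interferon-stimulated response element (GAAANNGAAA, read as TTTCNNTTTC on the other strand) and to a TATA-like box (TATAA).
Apol7c: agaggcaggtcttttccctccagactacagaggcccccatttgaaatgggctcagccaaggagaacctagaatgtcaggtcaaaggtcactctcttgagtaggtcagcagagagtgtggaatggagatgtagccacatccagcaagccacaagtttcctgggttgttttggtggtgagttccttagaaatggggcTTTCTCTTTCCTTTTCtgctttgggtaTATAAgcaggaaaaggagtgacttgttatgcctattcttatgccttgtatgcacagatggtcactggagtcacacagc
Apol7b: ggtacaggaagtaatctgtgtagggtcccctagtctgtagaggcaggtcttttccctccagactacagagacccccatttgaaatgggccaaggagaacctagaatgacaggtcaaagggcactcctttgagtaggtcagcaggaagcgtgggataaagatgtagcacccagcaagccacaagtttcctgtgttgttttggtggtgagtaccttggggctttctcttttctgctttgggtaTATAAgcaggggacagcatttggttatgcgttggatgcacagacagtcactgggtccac
Apol7e: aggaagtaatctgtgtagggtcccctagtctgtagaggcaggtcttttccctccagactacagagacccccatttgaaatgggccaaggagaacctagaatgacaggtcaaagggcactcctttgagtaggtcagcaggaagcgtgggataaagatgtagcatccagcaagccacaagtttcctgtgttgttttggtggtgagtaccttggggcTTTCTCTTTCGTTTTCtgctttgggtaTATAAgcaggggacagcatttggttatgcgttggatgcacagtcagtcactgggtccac
Apol10b: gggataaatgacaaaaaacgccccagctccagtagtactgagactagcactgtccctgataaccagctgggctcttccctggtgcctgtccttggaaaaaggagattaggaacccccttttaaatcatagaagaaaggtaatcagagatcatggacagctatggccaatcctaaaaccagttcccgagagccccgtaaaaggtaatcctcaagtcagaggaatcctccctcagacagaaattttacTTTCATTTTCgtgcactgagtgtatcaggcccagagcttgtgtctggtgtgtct
The Apol7b and Apol7e promoters were 90.8% and 90.6% identical to that of Apol7c over 262 and 267 aligned bases. The Apol7a promoter is not shown, although that gene also differed between the biotin groups. It aligned to that of Apol7c over only 26 bases (548 gap bases), and the Apol10b promoter over only 19 (562 gap bases).

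Both strands were searched. Apol7c had 2 response element cores, which overlap each other and begin 55 and 49 bases before the start, and a TATAA that begins 28 bases before it. Apol7e had 2 overlapping cores beginning 36 and 30 bases before its start, whereas Apol7b and Apol7a had 0. Apol9a and Apol9b had 2 each and Apol10b had 1. The core occurred in 3.47% of 26994 promoters of this length and TATAA in 25.5%. The interferon-gamma-activated site core (TTCNNNGAA, in 8.46% of promoters) and a kappa-B motif (in 8.18%) had 0 matches in all 7 member promoters.

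Apol7c was the dominant family member in every group. In biotin-positive libraries its lowest, median and highest levels were 10928, 13059.6 and 15672 CPM. In biotin-negative libraries they were 4756, 5819 and 6719.7 CPM. The Cd40-null libraries were at 7949 and 10882 CPM. All biotin-positive libraries were thus above all others, by a wide gap over biotin-negative libraries and a narrow one over the higher Cd40-null library, and both Cd40-null libraries were above all biotin-negative ones.

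The mean level of Apol7c was 13139.7 ± 1543 CPM (SD, n = 6) in biotin-positive and 5704 ± 749 CPM (n = 6) in biotin-negative cells, a 2.30-fold difference (log2 difference 1.20, SE 0.10). Against Cd40-null libraries the level was 1.40-fold higher in biotin-positive cells (log2 difference 0.48, SE 0.15) and 1.65-fold lower in biotin-negative cells (log2 difference -0.72, SE 0.14). The last values depend on which Cd40-null library is used. Without Cd40-null replicate 1 they were 0.27 and -0.93, and without replicate 2 they were 0.72 and -0.48. The biotin-negative and the biotin-positive comparisons with Cd40-null share those libraries. In bulk samples, more RNA per cell and more cells that carry the RNA cannot be told apart.

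Apol7c took 1.30 ± 0.162% of all counts in biotin-positive libraries, 0.576 ± 0.0854% in biotin-negative libraries, and 0.829% and 1.07% in the Cd40-null libraries. By CPM per kilobase of transcript it ranked 4 among 21751 genes with a transcript length in all 6 biotin-positive libraries. Its rank was between 5 and 12 in biotin-negative libraries and was 7 and 4 in the Cd40-null libraries. Within the family it took 98.9% of the counts in biotin-positive, 98.3% in biotin-negative and 98.3% in Cd40-null libraries. The family sum held 13 apolipoprotein L genes and left out the pseudogene Gm8221, so these shares would be lower with it.

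Gm8221, the pseudogene copy, had the same order of groups. Its lowest, median and highest levels were 3397, 3773 and 5239 CPM in biotin-positive and 1212, 1426 and 1669 CPM in biotin-negative libraries. The Cd40-null libraries were at 2206 and 3069 CPM, so the 3 groups did not overlap. Its estimated counts came to 30.3 ± 2.27% of those of Apol7c in biotin-positive, 25.1 ± 3.45% in biotin-negative and 27.8% and 28.2% in Cd40-null libraries. Log2 differences were 1.50 (SE 0.12) between biotin-positive and biotin-negative, 0.60 (SE 0.17) between biotin-positive and Cd40-null, and -0.90 (SE 0.15) between biotin-negative and Cd40-null cells. These have no test, because Gm8221 was taken up for its likeness to Apol7c and shares reads with it. With Apol7a, Apol7b, Apol7c, Apol7e and Gm8221 summed into one count, a step added after the data were seen, the 3 log2 differences were 1.27, 0.51 and -0.76.

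**Figure D2:**
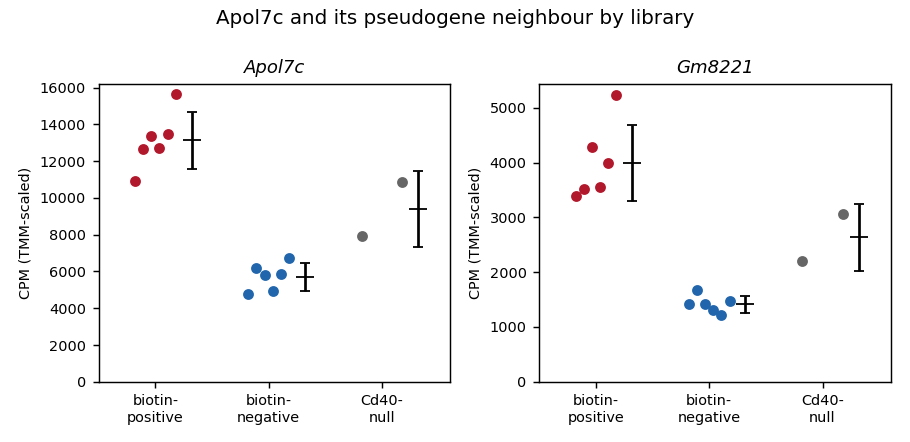
Level of Apol7c (left) and Gm8221 (right) in TMM-scaled CPM, one point per library, with the group mean and SD as a bar beside the points (n = 6, 6 and 2). Biotin-positive libraries lie highest for both genes; the lowest biotin-positive Apol7c value, 10928 CPM, is just above the higher Cd40-null value, 10882 CPM.

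The close copies Apol7b, Apol7e and Apol7a were far lower but had the same order of group means. In biotin-positive libraries they averaged 3.77, 1.25 and 0.194 counts per 1000 Apol7c counts. All 3 share read-length windows with Apol7c and Gm8221. What part reads of those 2 genes have in this order was not tested, so the copies are not separate evidence for it. Apol7b was at 33.3, 44.3 and 86.5 CPM (lowest, median and highest) in biotin-positive and at 11.1, 13.7 and 16.6 CPM in biotin-negative libraries, with Cd40-null libraries at 29.3 and 35.3 CPM. Its biotin-positive and biotin-negative ranges did not overlap, but the higher Cd40-null library was above the lowest biotin-positive one. Mean levels of 50.6 ± 18.8 CPM and 13.7 ± 2.18 CPM in biotin-positive and biotin-negative cells gave a log2 difference of 1.88 (SE 0.22).

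Apol7e was at 10.0, 16.2 and 22.4 CPM in biotin-positive and at 2.86, 4.96 and 7.46 CPM in biotin-negative libraries, with Cd40-null libraries at 8.61 and 12.2 CPM. Again the biotin-negative libraries were below all others, while biotin-positive and Cd40-null libraries overlapped. The log2 difference between biotin-positive (16.6 ± 4.48 CPM) and biotin-negative cells (5.18 ± 1.80 CPM) was 1.67 (SE 0.31). Because Apol7b and Apol7e share most read-length windows, their values are not independent of each other.

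Apol7a was the lowest of the Apol7 genes. It was at 1.51, 2.65 and 3.56 CPM in biotin-positive and 0.460, 0.722 and 1.31 CPM in biotin-negative libraries, and at 1.85 and 1.76 CPM in Cd40-null libraries. Biotin-negative libraries were the lowest here too. The log2 difference between biotin-positive (2.57 ± 0.898 CPM) and biotin-negative cells (0.750 ± 0.316 CPM) was 1.77 (SE 0.66).

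Apol10b did not share this pattern. Its levels were 53.5, 62.5 and 95.5 CPM in biotin-positive and 58.4, 67.4 and 98.5 CPM in biotin-negative libraries, with Cd40-null libraries at 92.2 and 145 CPM. Biotin-positive and biotin-negative libraries overlapped almost fully, and of the Cd40-null libraries replicate 1 lay inside both ranges and replicate 2 above them. Means of 69.0 ± 15.8 CPM and 72.2 ± 15.1 CPM gave a log2 difference of -0.07 (SE 0.18) between biotin-positive and biotin-negative cells.

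**Figure D3:**
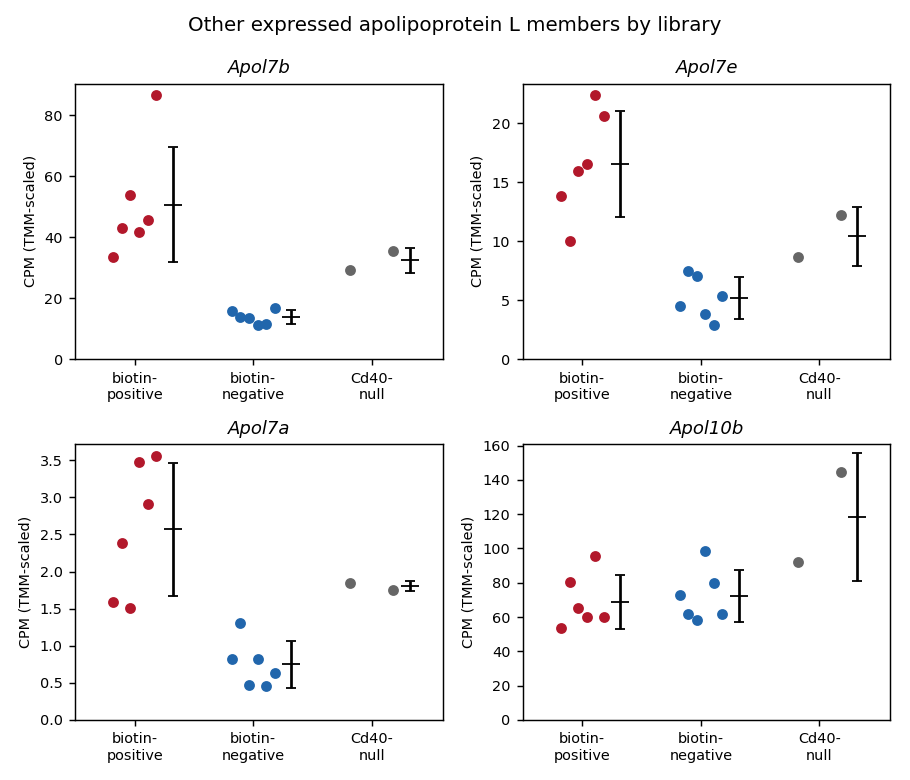
Levels of Apol7b, Apol7e, Apol7a and Apol10b in TMM-scaled CPM, one point per library, with the group mean and SD as a bar beside the points (n = 6, 6 and 2). For the Apol7 genes the biotin-negative libraries are below all others, whereas Apol10b has overlapping biotin-positive and biotin-negative libraries around means of 69.0 and 72.2 CPM.

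The interferon-induced pair was almost absent. Apol9a had 15 counts (0.464 CPM) in biotin-positive replicate 5 and 0 in the other libraries. Apol9b had 19 counts in biotin-positive replicate 1, 28 in biotin-positive replicate 4 and 37 in biotin-negative replicate 1, and 0 in the rest. A group with 0 counts could still hold up to 3 counts over its libraries, which is 0.0234 CPM for Apol9a in biotin-negative and 0.0689 CPM for either gene in Cd40-null cells. These limits cover counting error only, since reads carried no molecular identifiers. No fold change is given for either gene.

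Compared per kilobase of transcript, the scale that allows different genes to be set side by side, the biotin-positive means ran from Apol7c (6378 CPM per kb) over Apol10b (29.7), Apol7b (22.7) and Apol7e (7.50) to Apol7a (1.08). The ranges of Apol10b (23.0 to 41.1) and Apol7b (up to 38.9) overlapped in biotin-positive libraries. Apol7e, from 4.55 to 10.1, was below all values of Apol7b. In biotin-negative libraries the means were 2769 for Apol7c, 31.1 for Apol10b, 6.17 for Apol7b, 2.35 for Apol7e and 0.314 for Apol7a, and there Apol10b and Apol7b no longer overlapped.

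Relative to Apol7c within the same library, the copies were within a narrower span of values than Apol10b. Per 1000 Apol7c counts there were 3.77 ± 0.916 Apol7b counts in biotin-positive, 2.43 ± 0.456 in biotin-negative and on average 3.47 in Cd40-null libraries. For Apol7e the means were 1.25, 0.907 and 1.10, and for Apol7a 0.194, 0.134 and 0.197. Apol10b counts per 1000 Apol7c counts were between 3.81 and 7.08 in biotin-positive and between 9.23 and 20.0 in biotin-negative libraries, without overlap. Apol10b itself differed by -0.07 on the log2 scale, so this gap restates the difference of Apol7c, on which the family was picked.

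Of the 6 members in the fit, 4 (Apol7a, Apol7b, Apol7c and Apol7e) had CPM ranges that did not overlap between biotin-positive and biotin-negative cells, against 5.02% of all genes. Nothing is read from this count, because the contrast was used to pick the family.

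Apol7c was left out of the tests against Cd40-null cells, because the family was picked on its levels. Apol7a, Apol7b and Apol7e share 12.7%, 4.11% and 5.90% of their windows with Apol7c. Their tests are therefore not independent of its counts. Of the 5 other members in the fit, 0 passed edgeR's quasi-likelihood test at an adjusted p of 0.05 between biotin-positive and Cd40-null cells, against 2.27% of all genes tested (1.22% higher and 1.05% lower). Of these 5, 1 (Apol10b) had an unadjusted p under 0.05. The share of all genes under that limit is not given, so nothing is read from it. DESeq2 called 1 of the 5, Apol10b, as lower, beside 802 of the 14217 genes fitted (286 of them lower). Limma with voom weights called 0 of the 5, beside 603 of all genes. The ranges of 1 member, Apol7c, did not overlap, against 15.9% of all genes. Nothing is read from this count, because the family was picked on Apol7c. For Apol10b the log2 difference was -0.78 (SE 0.24, adjusted p = 0.109 by edgeR), and its adjusted p lay between 0.0237 and 0.757 over the alternative fits. It passed with DESeq2 (0.0459), with a T cell marker covariate (0.0237) and without biotin-positive replicate 5 (0.0466). For Apol7b the log2 difference was 0.65 (SE 0.31, edgeR adjusted p = 0.379), for Apol7e 0.67 (SE 0.44, adjusted p = 0.540) and for Apol7a 0.51 (SE 0.94, adjusted p = 0.894).

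Between biotin-negative and Cd40-null cells the ranges of 4 members, Apol7a, Apol7b, Apol7c and Apol7e, did not overlap, all lower in biotin-negative cells. Of all genes, 10.7% had ranges apart in either direction. Nothing is read from this count either, because it holds Apol7c and copies that share read windows with it. Of the 5 members other than Apol7c, edgeR called 0, against 0.317% of all genes (0.274% higher and 0.0422% lower), and 3 had an unadjusted p under 0.05. The share of all genes under that limit is not given, so nothing is read from those 3. DESeq2 called 1 of the 5, Apol7b, as lower, beside 272 of the 14217 genes fitted. Limma with voom weights called 0 of the 5. Apol7b differed by -1.23 on the log2 scale (SE 0.29, edgeR adjusted p = 0.0935). It passed with DESeq2 (0.0131) and without biotin-positive replicate 6 (0.0296), and its adjusted p lay between 0.0131 and 0.639 over the alternatives. Apol7e was at 5.18 against 10.4 CPM on average (SE of the log2 difference 0.40, edgeR adjusted p = 0.457). Apol7a differed by -1.26 (SE 0.86, adjusted p = 0.667) and Apol10b by -0.71 (SE 0.24, adjusted p = 0.342).

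**Figure D4:**
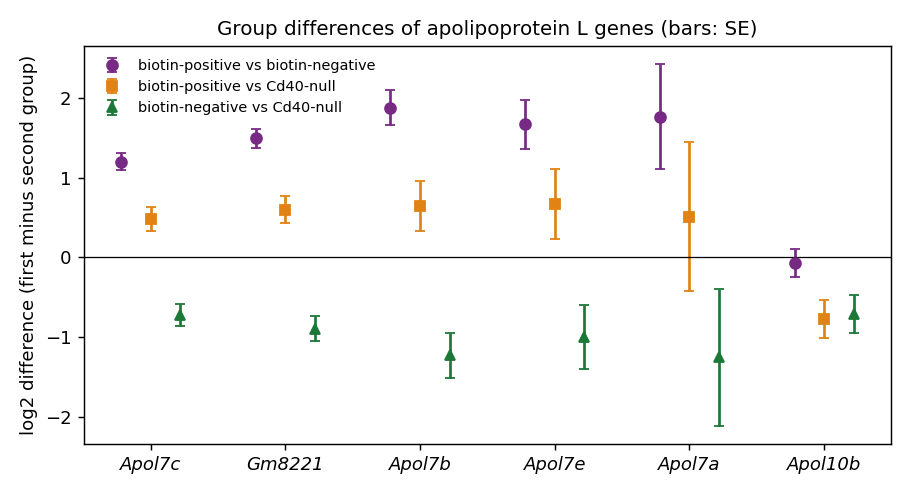
Log2 difference between groups (vertical axis, first minus second group as named, bars are SE) for the expressed apolipoprotein L genes and the pseudogene Gm8221. The Apol7 genes and Gm8221 lie above 0 against biotin-negative cells and biotin-negative cells lie below Cd40-null cells, while Apol10b is at -0.07 in the first comparison and -0.78 and -0.71 in the others.

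The other apolipoprotein L genes of the table were low throughout. Apol6, Apol7d, Apol8, Apol10a, Apol11a, Apol11b and Apold1 had few counts, the highest single value being 6.54 CPM for Apol11b in 1 biotin-negative library. Of these 7 genes 4 were tested, and edgeR called 0 of them in each comparison. Plasma-type apolipoproteins, which belong to unrelated families, had 6 of 15 genes tested and 0 called in each comparison.

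RefSeq lists 50 genes within 500 kb of the outermost members, of which 28 were in the table and 22 were tested. The 15 tested genes other than the members and Gm8221 had a median log2 difference of -0.19 between biotin-positive and biotin-negative cells, beside -0.03 over all genes. Of these 15, edgeR called 1 in this comparison, Rpl8, a ribosomal protein gene, at -0.53 (SE 0.14, adjusted p = 0.0254). Apol10b, with its log2 difference of -0.07, lies between Apol7c and Gm8221, which differed by 1.20 and 1.50.

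**Figure D5:**
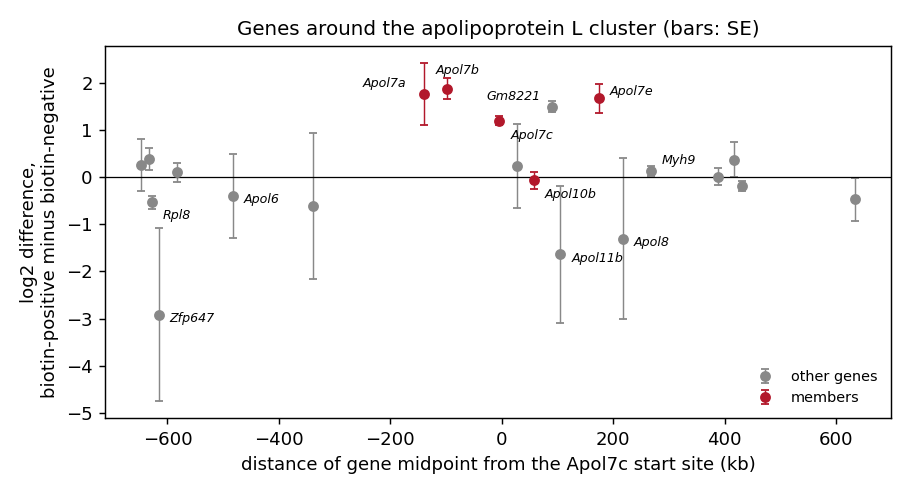
Log2 difference between biotin-positive and biotin-negative cells (vertical axis, bars are SE) for tested genes within 500 kb of the family, by distance of the gene's midpoint from the Apol7c start site in kb. Members are red and other genes grey, and Apol9b is left out because it had counts in 3 libraries only; Apol7a, Apol7b, Apol7c, Apol7e and Gm8221 lie above 1, and Apol10b among them is at -0.07.

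Genes most like Apol7c were ranked by Pearson's correlation of log2 CPM over the 14 libraries, among genes with a mean of at least 5 CPM. They were Fblim1, a filamin-binding adaptor (r = 0.98), Gm8221 (0.98), H2-M2, a nonclassical MHC class I gene (0.97), Apol7b (0.96) and Eno3, the muscle form of the glycolytic enzyme enolase (0.96). H2-M2 was at 980 ± 127 CPM in biotin-positive, 480 ± 71.9 CPM in biotin-negative and 765 CPM on average in Cd40-null libraries. Apol7e had r = 0.92, Apol7a 0.85, Apol10b -0.03 and Cd40 0.29. The value for Cd40 includes the 2 libraries from Cd40-/- hosts, at 53.3 and 74.2 CPM. Between biotin-positive and biotin-negative cells Cd40 differed 2.08-fold and Apol7c 2.30-fold. The correlations are a description, since the 14 points share the 3 groups.

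When each group's mean was subtracted first, other genes came to the top: Igsf3 (r = 0.88), Ppfia4 (0.87), Csf2ra, the GM-CSF receptor alpha chain (0.86), Plod3, a lysyl hydroxylase (0.85), and Cryaa, a small heat shock protein (0.84). On this scale Apol7b had r = 0.65 with Apol7c, Apol7e 0.50, Apol7a 0.18 and Apol10b 0.03. The deviations come from 14 libraries and from genes that can share reads or depth.

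Apol7c was then set against lists of genes for DC maturation, interferon response, the NF-kB pathway and phagosomes. These lists were chosen with earlier results of these data known. Their counts are therefore a description and not independent support. Of 34 genes of mature migratory DCs, counted without Cd40 itself, 11 were higher and 4 lower in biotin-positive than biotin-negative cells, with a median log2 difference of 0.14. Of all genes tested 3.7% were higher and 4.05% lower (7.75% in all), with a median of -0.03. Fscn1, the actin-bundling protein of mature DCs, was at 7172 ± 932 against 3185 ± 376 CPM (1.17, SE 0.10), and Ccl22, a T cell-attracting chemokine, at 5526 ± 1399.7 against 1886 ± 283 CPM (1.55, SE 0.15). Serpinb6b, a serine protease inhibitor, was at 1998 ± 136 against 836 ± 97.7 CPM (1.26, SE 0.08). In Cd40-null libraries Ccl22 averaged 1419.8 CPM, below its biotin-negative mean, whereas Apol7c was above its own. Against Cd40-null cells, 9 of the 34 were higher in biotin-positive cells and 1, Cd86, in biotin-negative cells, and 0 were lower in either.

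Within groups the relation between Apol7c and the mean log2 CPM of these genes and Cd40 (35 in all) could be tested over 6 libraries each. In biotin-positive libraries Pearson's r was -0.56 (exact permutation test, two-sided p = 0.235, 0.469 after Benjamini-Hochberg adjustment over 2 relations) and Spearman's rho was -0.43 (exact p = 0.419, adjusted 0.658). In biotin-negative libraries r was -0.33 (exact p = 0.542, adjusted 0.542) and rho was -0.26 (exact p = 0.658, adjusted 0.658). Without the 2 libraries farthest from the median, r changed sign in both groups, to 0.39 and 0.26, so no relation between Apol7c and this list was found within groups.

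Interferon-response genes did not follow the Apol7 genes upward. Of 37 type I interferon-response genes tested, 0 were higher and 12 lower in biotin-positive than biotin-negative cells, with a median log2 difference of -0.44. Mx1, an antiviral GTPase, was at 116 ± 30.7 against 440 ± 107 CPM (log2 difference -1.92, SE 0.18). Ifitm3, which blocks viral entry, was at 5.12 ± 1.97 against 33.1 ± 14.4 CPM, and Ifi27l2a at 3.24 ± 1.54 against 15.2 ± 5.40 CPM. Against Cd40-null cells 0 were higher and 3 lower in biotin-positive cells, and 0 of 37 were called between biotin-negative and Cd40-null cells. Of 15 interferon-gamma-inducible GTPases, 1 was lower in biotin-positive than biotin-negative cells (Tgtp2, 44.7 ± 23.8 against 110 ± 34.7 CPM) and 0 were higher.

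Among 27 genes of the NF-kB pathway, through which CD40 signals, counted without Cd40 itself, 3 were higher and 3 lower in biotin-positive than biotin-negative cells (median log2 difference 0.12). Icam1, an adhesion molecule, was at 1630.2 ± 210.3 against 1134 ± 132 CPM, and Nfkbiz, an NF-kB regulator, at 37.8 ± 11.2 against 113 ± 31.0 CPM. Against Cd40-null cells 4 of these 27 were higher in biotin-positive cells and 1, Nfkbiz, in biotin-negative cells, and 0 were lower. Of 30 genes tested for phagosomes, membrane damage and cross-presentation, 3 were higher and 4 lower in biotin-positive than biotin-negative cells, with a median of -0.14. They include Tapbp, which loads peptides onto MHC class I (2442 ± 225 against 1530.3 ± 119 CPM), Syk, a kinase of phagocytic receptors (46.4 ± 10.3 against 128 ± 24.2 CPM), and Cybb, the phagocyte oxidase subunit (26.0 ± 14.1 against 106 ± 18.7 CPM).

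Markers of other cells also differed between the groups in which Apol7c differed. The summed level of 15 monocyte and macrophage markers was 90.2 to 242 CPM in biotin-positive, 229 to 1263 CPM in biotin-negative and 266 to 459 CPM in Cd40-null libraries, and 8 of the 15 were lower in biotin-positive than biotin-negative cells, with 0 higher. None of the 15 was at 0 in all biotin-positive or all biotin-negative libraries. With the marker level as a covariate the log2 difference of Apol7c between biotin-positive and biotin-negative cells was 1.43 (SE 0.21), and with detected genes as a covariate it was 1.02 (SE 0.24). The latter covariate lowered the difference of Apol7e to 1.05 (SE 0.64) and that of Apol7a to 1.18 (SE 1.44). The marker covariate was the mean log2 CPM, at -0.17 to 1.82 in biotin-positive and 2.05 to 4.50 in biotin-negative libraries. Neither it nor the number of detected genes overlapped between these groups, so these fits cannot tell covariate and group apart.

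Langerhans cell markers moved with Apol7c between the biotin-positive and biotin-negative groups. The summed level of 6 markers was 337 to 514 CPM in biotin-positive, 60.4 to 164 CPM in biotin-negative and 134 to 166 CPM in Cd40-null libraries, and 3 of the 6 were higher in biotin-positive than biotin-negative cells, with 0 lower. Cd207, which encodes langerin, was at 72.6 to 126 CPM in biotin-positive, 8.43 to 46.6 CPM in biotin-negative, and 25.7 and 34.7 CPM in Cd40-null libraries. The part of these cells in the levels of Apol7c was not tested.

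Other marker lists also differed between these groups. Of 8 markers of the CD11b-type DC subset cDC2, 5 were lower and 0 higher in biotin-positive than biotin-negative cells, with a summed level of 109 to 256 against 408 to 592 CPM and 423 and 424 CPM in Cd40-null libraries, and Clec10a was at 0 in all biotin-positive libraries. Of 8 general DC markers, 5 were lower and 0 higher, with a summed level of 5139.7 to 7525 against 8481 to 11168 CPM and 6331 to 7865 CPM in Cd40-null libraries. Among them H2-Aa, an MHC class II chain of the kind used in the sort, was at 442 ± 197 against 1776 ± 431 CPM.

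Of 4 NK cell markers tested, 2 were lower and 0 higher in biotin-positive cells, and the summed level of all 9 was 39.0 to 72.7 against 152 to 241 CPM and 134 to 164 CPM in Cd40-null libraries, with Ncr1 and Gzma at 0 in all biotin-positive libraries. Of 7 plasmacytoid DC markers 1 was lower and of 6 cDC1 markers tested 1 was higher. The summed level of 5 B cell markers was 4.08 to 71.0 against 4.70 to 34.8 CPM, and that of 12 T cell markers 33.5 to 67.9 against 24.1 to 104 CPM. By mean log2 CPM, the scale of the covariate, T cell markers were at -0.61 to 1.70 in biotin-positive and -1.03 to 0.03 in biotin-negative libraries. Their median log2 difference was 1.69, with 0 of the 12 called. The part of these lists in the levels of Apol7c was not tested, apart from the T cell marker level, with which as a covariate the log2 difference of Apol7c was 1.28 (SE 0.12).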

How the data were processed

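Expression was measured by Smart-seq2 RNA sequencing of 14 libraries. Per the submitters' processing notes, the tools named are RSEM 1.2.8, Bowtie2 2.1.0 and DESeq2 1.16.0, and the build is mm10. The gene annotation is not given in the sources used here. The deposited values were expected counts from RSEM, here rounded to whole numbers, together with a normalized signal that served only as an alternative (log2 of the value plus 1, limma). Of the gene symbols, 27 read as dates and were kept under that spelling.

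RSEM divides reads that match several genes by an estimate, which affects the Apol7 copies and Gm8221. Genes with low counts were filtered (filterByExpr, minimum count 10), leaving 14217 of 23420, and 3078 were at 0 throughout. All 14 libraries were fitted together with group as the factor (edgeR 4.0.16 in R 4.3.3, TMM, robust quasi-likelihood test, Benjamini-Hochberg adjustment over all genes tested, threshold 0.05), and the fit was tested on simulated data. The SE of a log2 difference is its size divided by the square root of the test statistic. DESeq2 1.42.0 and limma 3.58.1 gave alternatives. The correlation that ranked genes by likeness used log2 CPM with a prior count of 2. Transcript lengths came from GENCODE M21 (matched for 21751 genes) and sequences were aligned with Biopython 1.88. No 2 libraries of a group agreed within sampling noise (chi-square per degree of freedom between 33.9 and 97.3 over 31 pairs).

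The members and gene lists were chosen with earlier results of these data known. Named genes outside the family were the 5 most like Apol7c on each of both measures, and in each list up to 3 of lowest p in the biotin contrast among those called with a mean of at least 5 CPM.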

Additional observations from a re-analysis of the deposited data

Results flagged for a closer look

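In groups of 6 libraries, 13 combinations of member and group had any spread. They were looked at for a library that stands apart from the others (Dixon's ratio). For normally distributed values chance alone gives about 1 in 20. Apol9a stood apart in biotin-positive replicate 5, at 0.464 CPM (15 counts) against 0 in the other libraries of that group. Apol9b stood apart in biotin-negative replicate 1, at 1.32 CPM (37 counts) against 0 in the others. With all other libraries at 0 the ratio is 1 whatever the count, so the rate for chance does not hold for these flags.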

How the results depend on the processing

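Apol7c kept its direction in all 29 alternative fits of each comparison: log2 differences ran from 1.02 to 1.43 for biotin-positive against biotin-negative, from 0.27 to 0.72 for biotin-positive against Cd40-null, and from -0.93 to -0.48 for biotin-negative against Cd40-null cells. The value of 1.43 came with the monocyte marker covariate, and leaving out single libraries gave 1.15 to 1.26, 0.27 to 0.72 and -0.93 to -0.48. The log2 difference of Apol10b between biotin-positive and biotin-negative cells, given as a description, ran from -0.35 to 0.20. With 2 Cd40-null libraries, comparisons with that group are the least precise, and a fit without one assumes that the other varies like the remaining groups.

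Over all genes, 1102 were called between biotin-positive and biotin-negative cells, but 11 with detected genes as a covariate, 128 with monocyte markers and 577 with T cell markers, and 839 to 1106 without single libraries. Between biotin-positive and Cd40-null cells 323 were called (174 higher, 149 lower), but 802 by DESeq2 (516 higher, 286 lower), 603 by voom (261 higher, 342 lower) and 186 with monocyte markers. The deposited signal split 289 higher to 156 lower, and leaving out single libraries gave 78 to 346 (78 without Cd40-null replicate 1, 95 without replicate 2). Between biotin-negative and Cd40-null cells 45 were called, but 272 by DESeq2, 83 on the deposited signal, 29 with only both groups compared, 6 with detected genes and 13 with T cell markers. Leaving out single libraries gave 12 to 54 there (21 without Cd40-null replicate 1, 12 without replicate 2). Fewer samples were fitted where single libraries were left out or only both groups compared. Detected genes (13090 to 13455 against 14225 to 15742) did not overlap between biotin-positive and biotin-negative libraries. Neither did the mean log2 CPM of monocyte markers (-0.17 to 1.82 against 2.05 to 4.50). Fits with either covariate therefore cannot tell it apart from the biotin group. Otherwise the cause was not tested.

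Over genes with a mean of at least 5 CPM, replicate numbers did not pair the libraries. Same-numbered biotin-positive and biotin-negative libraries had correlations of their deviations between -0.06 and 0.03, and 0 of 6 correlated best with its own number. For Apol7c alone, replicate 1 was lowest and replicate 6 highest in both groups. They were at 10928 and 15672 CPM in biotin-positive and 4756 and 6720 CPM in biotin-negative libraries. With the replicate block 891, 129 and 19 genes were called in the 3 comparisons, and Apol7c differed by 1.21, 0.38 and -0.82. The SE of the first of these Apol7c differences was 0.058 with the block and 0.104 in the main fit. Planned relations of Apol9 genes with interferon genes were not computed, because the Apol9 genes were at 0 in most libraries. The adjustment of the within-group relations therefore covered fewer relations than planned. Apol7a had no value in the deposited signal as used here, and no fold change of Apol9b is given under any setting.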
